A study of Mus musculus with 10 samples.

Results

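The genes described here are 37 mouse genes of stellate cell activation and matrix remodelling, measured in livers after loss of the histone variant H3.3. They were taken from the count table by gene symbol, each symbol matched 1 of the 55421 gene identifiers, and all 37 were among the 22449 genes that passed the filter of 10 summed counts. By role they are 4 stellate cell markers, 2 contractile genes, 4 PDGF ligands and receptors, 5 genes of TGF-beta signalling, 6 matrix metalloproteinases (MMPs) and their inhibitors, 3 lysyl oxidases, 4 genes of elastic fibres and fibronectin, 4 genes of small proteoglycans and dermatopontin, and 5 matricellular genes.

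Whole livers of 10 male C57BL/6 mice were profiled by poly(A) RNA-seq 3 weeks after a retro-orbital AAV8 injection at 6 months of age. The H3.3 KO group held 4 mice with floxed alleles of both H3.3 genes (H3f3a fl/fl H3f3b fl/fl) that received AAV8-Tbg-Cre. The WT Cre controls were 3 wild-type mice given that same vector, and the MCS controls were 3 floxed mice given AAV8-Tbg-MCS, which carries no Cre. The floxed mice carry a genotype label of HIRA fl/fl while their titles name H3f3a and H3f3b, and the groups here follow the titles. Which control column belongs to which control mouse was taken from the library number alone, and every value for 1 kind of control or 1 control liver rests on that match. All 10 mice therefore received an AAV8, 7 carried Cre and 7 were labelled as floxed. Tbg is a hepatocyte promoter, so stellate cells, fibroblasts and macrophages were not the cells targeted by Cre, and the libraries hold the RNA of all of them together.

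Stellate cells are the vitamin A storing mesenchymal cells of the liver sinusoid. On injury they turn into contractile myofibroblasts that secrete matrix, driven chiefly by PDGF, which makes them divide and migrate, and by TGF-beta, which turns on matrix genes. The matrix they lay down is crosslinked by lysyl oxidases and broken down by MMPs, which TIMPs inhibit, and portal fibroblasts, vascular smooth muscle and macrophages express many of the same genes.

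The 6 control libraries held 20862860 to 26096141 counts, KO 2 to 4 held 21485241 to 23619487, and KO 1 had the fewest at 14998426. The targeted genes were lower in every KO liver than in every control, with H3f3a at 16 to 19 CPM (counts scaled to a common TMM-adjusted library size) against 59.9 to 63.7, and H3f3b at 39.8 to 56.7 against 136 to 204. The log2 fold changes were -1.83 for H3f3a and -1.66 for H3f3b (edgeR adjusted p of 3.5e-08 and 3.62e-06). Alb, the most abundant of the hepatocyte markers, was at 61393 to 75941 CPM in KO and 83710 to 118201 CPM in the controls.

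The first comparison set the 4 H3.3 KO livers against all 6 controls. Of the 37 genes, 32 (86.5%) were higher in KO at an adjusted p under 0.05, where 19.7% of all genes tested were higher. Fibronectin, Fn1, was the 1 gene that was lower, where 16.6% of all genes were. Acta2, Tgfb2, Mmp9 and Spon2 did not pass. The 32 ran from the TIMP inhibitor Timp1, with a log2 fold change of 4.64, down to the stellate marker Reln at 0.42, and the median of all 37 was 1.27 against -0.003 over all genes tested. An absolute log2 fold change over 1 was also met by 24 of the 37 (64.9%), all higher, where 12.9% of all genes were differentially expressed (DEG) and higher. In 28 of the 37 every KO liver lay above every control, where 12.5% of all genes were so placed, and Fn1 lay below every control in every KO liver, where 12% of all genes were. The 8 genes whose groups overlapped were Acta2, Reln, Pdgfra, Pdgfb, Tgfb2, Tgfb3, Mmp9 and Spon2. In RNA of whole liver, more cells of a type and more RNA per cell cannot be told apart.

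Adjusted p-values are from the quasi-likelihood test of edgeR over all genes tested, and ± in the lists of further genes is the SD over the 6 controls or the 4 KO livers. Scaling by library size alone moved the median of all genes from -0.003 to 0.17 and that of the 37 genes from 1.27 to 1.44. It left 33 of the 37 higher and 1 lower, while the split over all genes went from 4429 higher and 3726 lower to 5635 higher and 2172 lower.

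**Figure D1:**
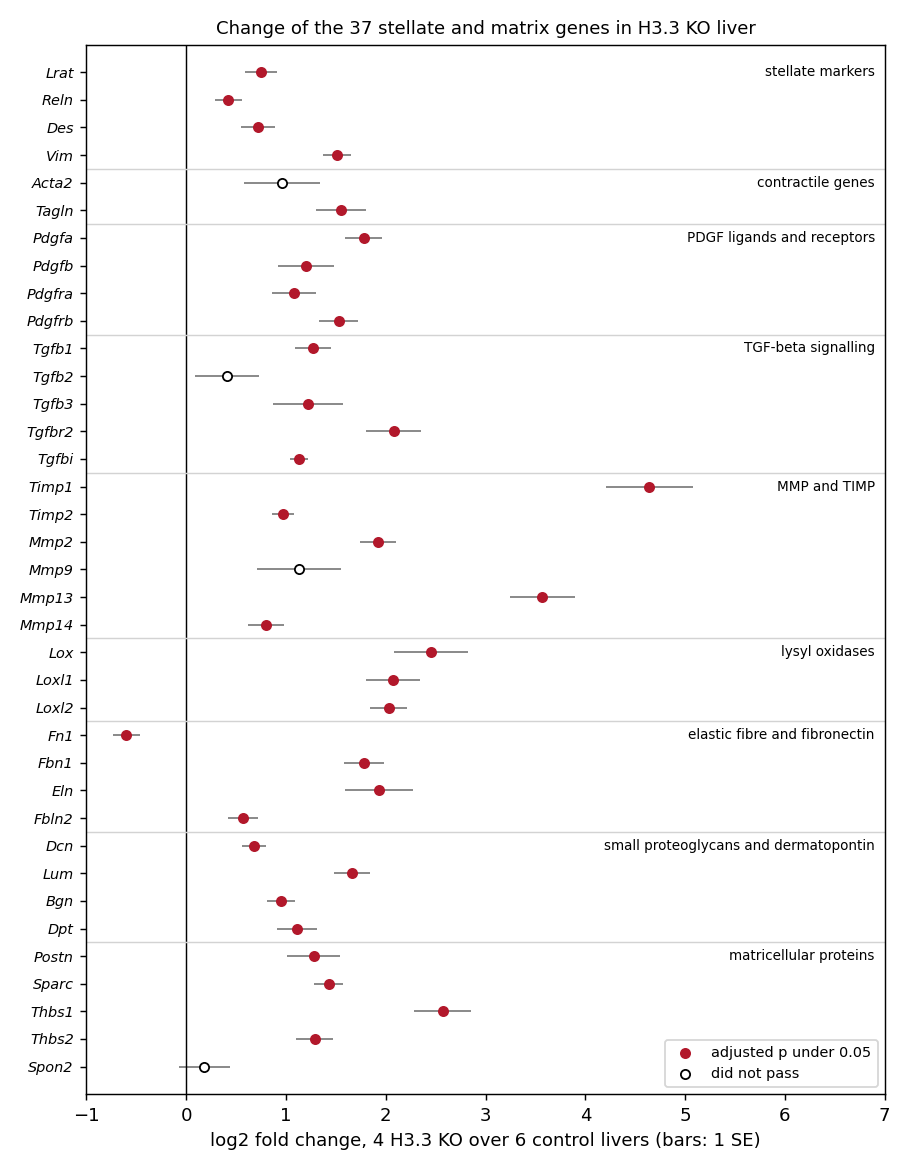
Log2 fold change of the 37 stellate and matrix genes in 4 H3.3 KO over 6 control livers (x axis) for each gene (y axis), grouped by role, with bars of 1 SE. Filled points passed an adjusted p under 0.05 and open points did not. Timp1 and Mmp13 lie farthest to the right at 4.64 and 3.57, Fn1 is the filled point left of 0 at -0.60, and Acta2, Tgfb2, Mmp9 and Spon2 are open.

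All 4 stellate cell markers were higher in KO, by a median log2 fold change of 0.73, and 1 of the 4 was a DEG. Vim encodes vimentin, the intermediate filament of mesenchymal cells (ENSMUSG00000026728.9, chromosome 2 at 13573927 to 13582826 on the plus strand), and its CPM was 16.6, 22.5 and 16.4 in WT Cre 1 to 3 and 17.1, 15.6 and 16.2 in MCS 1 to 3. Vim stood at 35.3, 55.1, 47.7 and 59.9 CPM in KO 1 to 4. Every KO liver stood above the highest control, WT Cre 2, and KO 1 was the lowest of the 4 (log2 fold change of 1.51, SE 0.144, adjusted p of 9.91e-06). Lrat encodes the enzyme that esterifies retinol for storage in stellate cells (ENSMUSG00000028003.6, chromosome 3 at 82892579 to 82903973 on the minus strand). Lrat measured 17.4, 14.1 and 20.8 in WT Cre 1 to 3 and 17.6, 12.1 and 16 in MCS 1 to 3. Lrat stood at 31.3, 21.8, 23.5 and 33.2 CPM in KO 1 to 4. KO 2 was closest to the controls, 1 CPM above WT Cre 3, and Lrat rose from a control mean of 16.3 ± 3.02 CPM (SD, n = 6) to 27.4 ± 5.61 CPM in KO (SD, n = 4), which is 0.75 (SE 0.157, adjusted p of 0.00247) on the log2 scale. Des, which encodes the muscle-type intermediate filament desmin, rose from a control mean of 4.05 ± 0.554 CPM (SD, n = 6) to 6.66 ± 1.65 CPM in KO (SD, n = 4), which is 0.72 (SE 0.171, adjusted p of 0.00525) on the log2 scale. Reln, which encodes the secreted glycoprotein reelin, showed the smallest rise, from a control mean of 42 ± 6.98 CPM (SD, n = 6) to 56 ± 9.68 CPM in KO (SD, n = 4), which is 0.42 (SE 0.136, adjusted p of 0.0292) on the log2 scale. MCS 3 stood apart from the other controls for Reln at 55.7 CPM and above KO 1 at 43.4. The call of Reln was lost in 9 of 19 alternatives, among them leaving out any of WT Cre 1, 2 or 3, MCS 1 or 2, or KO 2, 3 or 4, with adjusted p of 0.00303 to 0.0941 over the 19.

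The 2 contractile genes went apart at the threshold. Tagln encodes transgelin, an actin-binding protein of smooth muscle and myofibroblasts (ENSMUSG00000032085.5, chromosome 9 at 45929619 to 45936058 on the minus strand). Its CPM was 2.46, 1.95 and 2.34 in WT Cre 1 to 3 and 1.63, 1.56 and 2.29 in MCS 1 to 3. Tagln stood at 4.3, 5.77, 3.88 and 9.79 CPM in KO 1 to 4. KO 4 was the highest and KO 3 the lowest of the KO livers, and all 4 exceeded every control (log2 fold change of 1.55, SE 0.252, adjusted p of 0.000449). Gm48529 shares 1241 exonic bases with Tagln on the opposite strand, and the strand setting of the counting was not given in the sources used here, so its reads may include those of Gm48529.

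Acta2 encodes alpha smooth muscle actin, the usual marker of activated stellate cells, which vascular smooth muscle also expresses (ENSMUSG00000035783.9, chromosome 19 at 34241090 to 34255590 on the minus strand). Its CPM was 2.71, 2.08 and 7.46 in WT Cre 1 to 3 and 2.89, 2.05 and 2.79 in MCS 1 to 3. Acta2 stood at 7.23, 5.18, 3.83 and 9.91 CPM in KO 1 to 4. WT Cre 3 lay above KO 1, 2 and 3, while the other 5 controls were below all 4 KO livers. The control mean was 3.33 ± 2.06 CPM (SD, n = 6), the KO mean was 6.54 ± 2.64 CPM (SD, n = 4), and Acta2 missed the threshold (log2 fold change of 0.96, SE 0.384, adjusted p of 0.0711). Without WT Cre 3 the log2 fold change was 1.39 with an adjusted p of 0.00185, and over the 19 alternatives the adjusted p ran from 0.00185 to 0.243. Myh11 and Cnn1, smooth muscle genes, were also highest among the controls in WT Cre 3, at 6.63 against 1.43 to 2.95 CPM and at 1.19 against 0.0434 to 0.223 CPM. Of the other smooth muscle genes tested, Actg2, Smtn, Synpo2, Tpm1 and Tpm2 were highest there too, and Mylk, Cald1 and Lmod1 were not. The cholangiocyte marker Krt19 was also highest there, at 2.82 against 0.727 to 1.13 CPM. The part of smooth muscle or other cells in the Acta2 value was not tested.

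**Figure D2:**
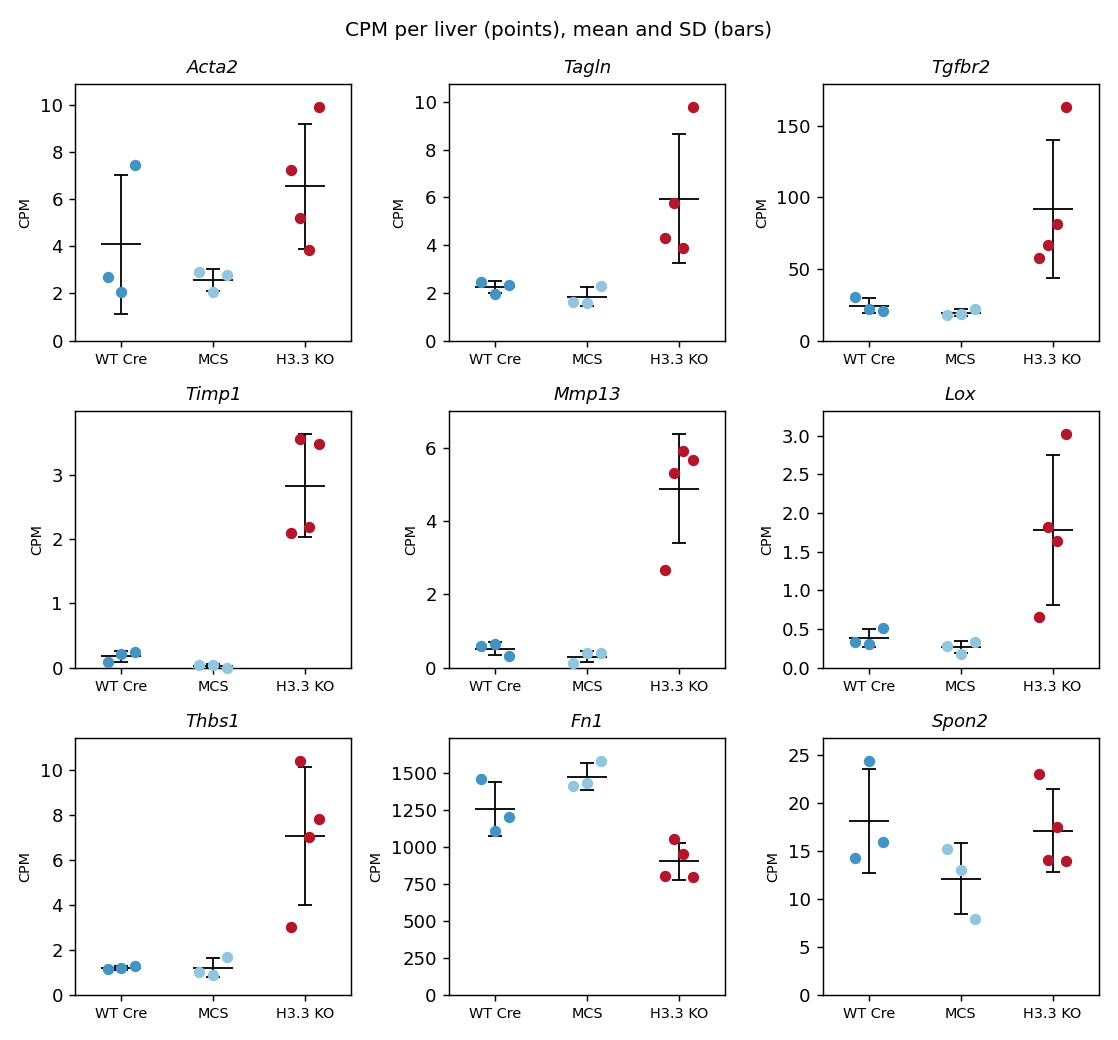
CPM (y axes, each from 0) of 9 genes in the WT Cre, MCS and H3.3 KO livers (x axes), with a point for each liver and a bar for the mean and SD. For Acta2 a single WT Cre liver at 7.46 CPM reaches into the KO range, for Tgfbr2, Timp1, Mmp13 and Thbs1 all KO points lie above all controls, for Fn1 they lie below, and for Spon2 the groups overlap.

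All 4 PDGF genes rose, with a median log2 fold change of 1.37. Pdgfa, a ligand (ENSMUSG00000025856.15, chromosome 5 at 138976014 to 138997370 on the minus strand), had a CPM of 6.88, 7.11 and 5.36 in WT Cre 1 to 3 and 6.19, 4.29 and 5.37 in MCS 1 to 3. Pdgfa stood at 13.3, 19.2, 20.5 and 27.7 CPM in KO 1 to 4. The lowest KO liver, KO 1, was above the highest control, WT Cre 2 (log2 fold change of 1.78, SE 0.187, adjusted p of 1.96e-05). Pdgfrb, the receptor that marks stellate cells and pericytes (ENSMUSG00000024620.11, chromosome 18 at 61045150 to 61085061 on the plus strand), measured 8.46, 8.85 and 6.15 in WT Cre 1 to 3 and 7.73, 7.46 and 7.38 in MCS 1 to 3. Pdgfrb stood at 15.4, 20.6, 17.9 and 34.6 CPM in KO 1 to 4. KO 4 stood well above the other KO livers, which were all above the controls (log2 fold change of 1.53, SE 0.195, adjusted p of 8.68e-05). Of the others, the ligand gene Pdgfb rose from a control mean of 1.37 ± 0.43 CPM (SD, n = 6) to 3.13 ± 1.06 CPM in KO (SD, n = 4), and the receptor gene Pdgfra rose from a control mean of 4.96 ± 1.26 CPM (SD, n = 6) to 10.4 ± 3.25 CPM in KO (SD, n = 4). Their log2 fold changes were 1.20 (SE 0.277, adjusted p of 0.00452) and 1.08 (SE 0.22, adjusted p of 0.00205), and each overlapped in at least 1 liver. The remaining family genes Pdgfc, Pdgfd and Pdgfrl did not pass (-0.066, 0.084 and 0.99 on the log2 scale, adjusted p of 0.825, 0.794 and 0.0677), and 1 of the 3 had an unadjusted p under 0.05 in edgeR. In 6 of the 19 alternatives 1 of these 3 was called, among them leaving out WT Cre 1 or WT Cre 3.

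Of the 3 TGF-beta ligand genes, Tgfb1 and Tgfb3 passed and Tgfb2 did not. Tgfb1 (ENSMUSG00000002603.15, chromosome 7 at 25687002 to 25705077 on the plus strand) had a CPM of 8.88, 7.76 and 9.49 in WT Cre 1 to 3 and 5.98, 6.74 and 8.22 in MCS 1 to 3. Tgfb1 stood at 11.7, 22.2, 19.3 and 22.3 CPM in KO 1 to 4. All KO livers lay above all controls, with KO 1 nearest to them (log2 fold change of 1.27, SE 0.178, adjusted p of 0.000152). Tgfb3 (ENSMUSG00000021253.7, chromosome 12 at 86056745 to 86079041 on the minus strand) had a CPM of 1.21, 1.04 and 1.19 in WT Cre 1 to 3 and 1.06, 0.536 and 1.62 in MCS 1 to 3. Tgfb3 stood at 1.43, 2.29, 1.6 and 4.9 CPM in KO 1 to 4. KO 4 was far above the rest, and MCS 3 was above KO 1 and KO 3. Tgfb3 passed (log2 fold change of 1.22, SE 0.352, adjusted p of 0.0156), but without KO 4 its log2 fold change was 0.69 with an adjusted p of 0.091. Tgfb2 (ENSMUSG00000039239.14, chromosome 1 at 186622792 to 186705989 on the minus strand) had a CPM of 0.667, 1.3 and 0.913 in WT Cre 1 to 3 and 0.651, 0.357 and 0.559 in MCS 1 to 3. Tgfb2 stood at 0.977, 0.87, 0.801 and 1.3 CPM in KO 1 to 4. The groups overlapped, with WT Cre 2 and KO 4 at the same rounded value, and Tgfb2 missed the threshold (log2 fold change of 0.41, SE 0.317, adjusted p of 0.351). Over the 19 alternatives its log2 fold change ran from 0.08 to 0.64.

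Tgfbr2 encodes the receptor subunit that binds TGF-beta and phosphorylates its partner (ENSMUSG00000032440.13, chromosome 9 at 116084293 to 116175360 on the minus strand). Its CPM was 30.3, 21.9 and 20.4 in WT Cre 1 to 3 and 17.8, 18.3 and 22.3 in MCS 1 to 3. Tgfbr2 stood at 57.4, 66.9, 81.1 and 163 CPM in KO 1 to 4. KO 4 held the highest value by far, yet KO 1, the lowest, still exceeded WT Cre 1, the highest control. Tgfbr2 rose from a control mean of 21.8 ± 4.52 CPM (SD, n = 6) to 92 ± 48.1 CPM in KO (SD, n = 4), which is 2.08 (SE 0.275, adjusted p of 0.000262) on the log2 scale. Tgfbi, an adhesion protein gene named for its induction by TGF-beta, rose from a control mean of 36 ± 2.41 CPM (SD, n = 6) to 78.9 ± 8.08 CPM in KO (SD, n = 4), which is 1.13 (SE 0.0906, adjusted p of 2.49e-06) on the log2 scale. The partner receptor gene Tgfbr1 did not pass (0.16 on the log2 scale, SE 0.123, adjusted p of 0.328). Of 21 other pathway genes tested, 12 were higher, none lower and 9 did not pass, with a median log2 fold change of 0.57. Fst, for the activin antagonist follistatin, was among the 12 and went from 3.05 ± 2 to 32.9 ± 15.3 CPM (3.43 on the log2 scale, SE 0.491, adjusted p of 0.000647).

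The MMP and TIMP group held the largest changes of the 37 genes, with 5 of 6 higher and a median log2 fold change of 1.53. The promoters of its 2 leading genes are shown because they carried those changes, and they were chosen after the values were seen. Each is the 250 bases before the RefSeq gene start (GRCm38.p6, plus strand), at chrX:20869916-20870165 for Timp1 and chr9:7272264-7272513 for Mmp13. Capitals mark matches to the motifs searched on both strands.
Timp1: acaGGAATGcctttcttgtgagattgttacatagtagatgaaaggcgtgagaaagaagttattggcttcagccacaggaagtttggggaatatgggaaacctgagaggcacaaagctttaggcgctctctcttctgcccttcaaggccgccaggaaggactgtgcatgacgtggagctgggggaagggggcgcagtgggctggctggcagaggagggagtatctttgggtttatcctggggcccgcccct
Mmp13: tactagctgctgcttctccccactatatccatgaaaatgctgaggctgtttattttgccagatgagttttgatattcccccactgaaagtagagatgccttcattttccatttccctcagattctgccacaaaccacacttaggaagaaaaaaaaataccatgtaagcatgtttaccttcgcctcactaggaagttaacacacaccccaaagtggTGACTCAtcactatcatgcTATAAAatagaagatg
The Mmp13 window holds the AP-1 motif TGANTCA at 35 to 29 bases before the start and TATAAA at 16 to 11 bases. The Timp1 window holds GGAATG, the TEAD motif, at 247 to 242 bases. In RefSeq promoters of 300 bases, 50 of them after the start, TGANTCA occurs in 7.81% of 32851, TATAAA in 13.6%, GGAATG in 14.7%, the SMAD core CAGAC in 49.6% and the CArG box (CC, 6 of A or T, GG, which can itself contain TATAAA) in 1.63%. Of the 22 stellate and matrix genes with a promoter in that table, 1, 6, 3, 9 and 0 hold them. Acta2 has no exact match to this CArG pattern in its window, but ccctatatgg and ccttgtttgg there each differ from it at 1 base. Near matches were not searched for, so the count of 0 does not show that CArG-like elements are absent. It says nothing of the factor, and Tagln is not in the table.

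Timp1, the secreted inhibitor of MMPs (ENSMUSG00000001131.11, chromosome X at 20870166 to 20874735 on the plus strand), had a CPM of 0.0834, 0.217 and 0.238 in WT Cre 1 to 3 and 0.0407, 0.0446 and 0 in MCS 1 to 3. Timp1 stood at 2.09, 3.56, 2.19 and 3.48 CPM in KO 1 to 4. It was close to 0 in the controls and above 2 CPM in all 4 KO livers (log2 fold change of 4.64, SE 0.434, adjusted p of 8.66e-06). The 6 control libraries held 15 Timp1 counts in all, 0 to 6 each, and the KO libraries 265, or 32 to 91 each. Per library size that is a ratio of 26.8, with an exact 95% interval of 16 to 48.6 that covers counting error only. Timp2, which inhibits MMPs and also takes part in activating pro-MMP2, rose by a smaller fold, from a control mean of 13.5 ± 0.907 CPM (SD, n = 6) to 26.4 ± 4.05 CPM in KO (SD, n = 4), which is 0.97 (SE 0.108, adjusted p of 3.14e-05) on the log2 scale. The ratio of Timp1 to Timp2 CPM was 0 to 0.0169 in the controls and 0.0733 to 0.14 in KO.

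Mmp13, an interstitial collagenase of rodents (ENSMUSG00000050578.10, chromosome 9 at 7272514 to 7283331 on the plus strand), had a CPM of 0.584, 0.651 and 0.318 in WT Cre 1 to 3 and 0.122, 0.402 and 0.391 in MCS 1 to 3. Mmp13 stood at 2.67, 5.3, 5.9 and 5.66 CPM in KO 1 to 4. KO 1 was the lowest KO liver and still several times the highest control (log2 fold change of 3.57, SE 0.33, adjusted p of 8.14e-06). Its 463 KO counts against 56 in the controls gave a ratio of 12.5 per library size (exact 95% interval 9.49 to 16.9). The gelatinase gene Mmp2 rose from a control mean of 2.64 ± 0.533 CPM (SD, n = 6) to 10 ± 2.22 CPM in KO (SD, n = 4), and Mmp14, a membrane-bound MMP that activates pro-MMP2, rose from a control mean of 24.8 ± 5.02 CPM (SD, n = 6) to 43.1 ± 9.69 CPM in KO (SD, n = 4). Their log2 fold changes were 1.92 (SE 0.181, adjusted p of 9.6e-06) and 0.80 (SE 0.184, adjusted p of 0.00495). KO 1 was close to the controls for Mmp14, at 28.7 CPM against 28.1 in MCS 1.

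Mmp9, the gelatinase of neutrophils and macrophages (ENSMUSG00000017737.2, chromosome 2 at 164940780 to 164955850 on the plus strand), had a CPM of 0.167, 0.737 and 0.556 in WT Cre 1 to 3 and 0.366, 0.491 and 1.34 in MCS 1 to 3. Mmp9 stood at 0.977, 1.82, 1.6 and 0.803 CPM in KO 1 to 4. MCS 3 lay above KO 1 and KO 4, and Mmp9 missed the threshold (log2 fold change of 1.13, SE 0.424, adjusted p of 0.0518). It lay near the threshold, and passed in 9 of 19 alternatives, with adjusted p of 0.00854 to 0.161, the lowest without MCS 3 (log2 fold change of 1.49). Of 23 other MMP, TIMP and matrix protease genes tested, 15 were higher and none lower, with a median log2 fold change of 1.32, and Mmp10 had no count in any liver. They were led by Mmp12, the macrophage elastase, from 0.564 ± 0.492 to 23 ± 9.87 CPM (5.32 on the log2 scale, SE 0.524, adjusted p of 6.14e-05). Mmp24, a membrane-bound MMP, also rose, with 71 counts in KO and 9 in the controls (a ratio of 12 per library size, exact 95% interval 5.96 to 27.2, adjusted p of 0.00129). KO 4 held 47 of the 71, and without it the KO mean went from 0.725 to 0.368 CPM and the adjusted p was 0.00388.

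The 3 lysyl oxidases, which oxidise lysines of collagen and elastin so that fibres crosslink, all rose, by a median log2 fold change of 2.07. Lox (ENSMUSG00000024529.14, chromosome 18 at 52516067 to 52529867 on the minus strand) had a CPM of 0.333, 0.304 and 0.516 in WT Cre 1 to 3 and 0.285, 0.179 and 0.335 in MCS 1 to 3. Lox stood at 0.652, 1.82, 1.64 and 3.02 CPM in KO 1 to 4. KO 1 was close to WT Cre 3, and KO 4 was the highest (log2 fold change of 2.45, SE 0.372, adjusted p of 0.000269). These were low counts, 4 to 13 in each control and 10 to 79 in each KO liver, with a ratio of 5.87 per library size (exact 95% interval 4.21 to 8.33). Loxl1, which acts on elastic fibres (ENSMUSG00000032334.10, chromosome 9 at 58287738 to 58313186 on the minus strand), measured 1.58, 1.34 and 1.79 in WT Cre 1 to 3 and 1.51, 2.05 and 0.95 in MCS 1 to 3. Loxl1 stood at 3.97, 5.46, 5.52 and 11 CPM in KO 1 to 4. All KO livers lay above all controls, and KO 4 was again the highest (log2 fold change of 2.07, SE 0.273, adjusted p of 9.69e-05). Loxl2, which acts on basement membrane collagen, rose from a control mean of 2.17 ± 0.439 CPM (SD, n = 6) to 8.86 ± 1.81 CPM in KO (SD, n = 4), which is 2.03 (SE 0.185, adjusted p of 7.32e-06) on the log2 scale. Of 13 other crosslinking and collagen processing genes tested, 7 were higher, 1 was lower (Loxl4, -0.58 on the log2 scale, adjusted p of 0.0442, a call lost without any 1 liver other than MCS 1) and 5 did not pass. Pcolce, the enhancer of procollagen C-proteinase, changed most, from 7.18 ± 0.909 to 72 ± 29.7 CPM (3.33 on the log2 scale, SE 0.277, adjusted p of 1.53e-05). Plod2, a lysyl hydroxylase, went from 0.704 ± 0.239 to 2.26 ± 1.03 CPM (1.70 on the log2 scale, SE 0.317, adjusted p of 0.00115).

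Among the elastic fibre and fibronectin genes 3 rose and 1 fell. Eln, which encodes elastin (ENSMUSG00000029675.12, chromosome 5 at 134702593 to 134747323 on the minus strand), had a CPM of 2.5, 2.65 and 3.29 in WT Cre 1 to 3 and 2.2, 2.54 and 1.45 in MCS 1 to 3. Eln stood at 3.78, 7.99, 8.3 and 17.2 CPM in KO 1 to 4. KO 1 was just above the highest control and KO 4 was far above all livers (log2 fold change of 1.93, SE 0.341, adjusted p of 0.00113). Fbn1, which encodes the microfibril protein fibrillin-1 (ENSMUSG00000027204.13, chromosome 2 at 125300594 to 125507993 on the minus strand), measured 2.21, 2.21 and 3.18 in WT Cre 1 to 3 and 2.44, 2.77 and 3.35 in MCS 1 to 3. Fbn1 stood at 6.58, 8.34, 8.64 and 13.4 CPM in KO 1 to 4. The lowest KO liver was above the highest control, MCS 3 (log2 fold change of 1.78, SE 0.199, adjusted p of 3.1e-05), though Gm9913 shares 2442 exonic bases with Fbn1 on the opposite strand. Fbln2, a fibulin of elastic fibres and basement membranes, rose from a control mean of 3.01 ± 0.398 CPM (SD, n = 6) to 4.48 ± 0.493 CPM in KO (SD, n = 4), which is 0.57 (SE 0.152, adjusted p of 0.0102) on the log2 scale.

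Fn1 encodes fibronectin, which hepatocytes secrete into plasma and which mesenchymal cells deposit as fibres (ENSMUSG00000026193.15, chromosome 1 at 71585520 to 71653200 on the minus strand). Its CPM was 1459, 1103 and 1201 in WT Cre 1 to 3 and 1407, 1430 and 1576 in MCS 1 to 3. Fn1 stood at 800, 1054, 948 and 796 CPM in KO 1 to 4. All 4 KO livers lay below the lowest control, WT Cre 2, and KO 4 was lower than KO 2 for Fn1 while it was the highest KO liver for most genes that rose (log2 fold change of -0.60, SE 0.135, adjusted p of 0.00391). Of 8 hepatocyte markers, 5 also fell and 3 did not pass, with a median log2 fold change of -0.76. Slc10a1, the bile acid uptake carrier, went from 793 ± 178 to 216 ± 64.3 CPM (-1.88 on the log2 scale, SE 0.225, adjusted p of 5.61e-05). The drug-metabolising Cyp2e1 went from 4908 ± 1143 to 1691 ± 265 CPM (-1.54 on the log2 scale, SE 0.192, adjusted p of 6.73e-05). The summed level of the 8 was 106996 to 151171 CPM in the controls and 80936 to 95283 CPM in KO. Their part in the Fn1 value was not tested.

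The 4 genes of small proteoglycans and dermatopontin rose, by a median log2 fold change of 1.03. Lum, which encodes lumican, a collagen-binding proteoglycan (ENSMUSG00000036446.5, chromosome 10 at 97565128 to 97572703 on the plus strand), had a CPM of 5.46, 5.86 and 7.15 in WT Cre 1 to 3 and 4.93, 4.64 and 5.92 in MCS 1 to 3. Lum stood at 12.4, 15.9, 17.7 and 25.2 CPM in KO 1 to 4. All KO livers lay above all controls (log2 fold change of 1.66, SE 0.179, adjusted p of 2.41e-05). Dpt, whose product dermatopontin binds decorin (ENSMUSG00000026574.5, chromosome 1 at 164796644 to 164824266 on the plus strand), measured 3.17, 3.56 and 6.11 in WT Cre 1 to 3 and 4.56, 3.08 and 3.24 in MCS 1 to 3. Dpt stood at 8.54, 7.12, 8.93 and 9.68 CPM in KO 1 to 4. WT Cre 3 was the highest control and lay below KO 2, the lowest KO liver (log2 fold change of 1.11, SE 0.196, adjusted p of 0.000778). The abundant genes rose less in log2 terms, with Dcn, for decorin, from a control mean of 134 ± 14 CPM (SD, n = 6) to 214 ± 32.5 CPM in KO (SD, n = 4) and Bgn, for biglycan, from a control mean of 90.8 ± 6.14 CPM (SD, n = 6) to 176 ± 44.2 CPM in KO (SD, n = 4). Their log2 fold changes were 0.68 (SE 0.116, adjusted p of 0.000665) and 0.95 (SE 0.141, adjusted p of 0.000231).

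Of the 5 matricellular genes 4 rose and Spon2 did not pass, with a group median of 1.29. Thbs1, which encodes thrombospondin-1, an activator of latent TGF-beta (ENSMUSG00000040152.8, chromosome 2 at 118111876 to 118127133 on the plus strand), had a CPM of 1.13, 1.21 and 1.27 in WT Cre 1 to 3 and 1.02, 0.893 and 1.68 in MCS 1 to 3. Thbs1 stood at 3, 10.4, 7.04 and 7.84 CPM in KO 1 to 4. KO 2 was the highest and KO 1 the lowest KO liver, and all 4 exceeded MCS 3, the highest control (log2 fold change of 2.57, SE 0.284, adjusted p of 2.84e-05). Sparc, which encodes osteonectin, a collagen-binding protein (ENSMUSG00000018593.13, chromosome 11 at 55394500 to 55423183 on the minus strand), measured 59.9, 53.8 and 54.5 in WT Cre 1 to 3 and 49.9, 44.9 and 60.2 in MCS 1 to 3. Sparc stood at 114, 128, 135 and 201 CPM in KO 1 to 4. The groups did not overlap and KO 4 was the highest (log2 fold change of 1.43, SE 0.146, adjusted p of 1.72e-05). Postn, for periostin, rose from a control mean of 8.44 ± 3.1 CPM (SD, n = 6) to 20.5 ± 4.48 CPM in KO (SD, n = 4), and Thbs2, for thrombospondin-2, rose from a control mean of 1.97 ± 0.291 CPM (SD, n = 6) to 4.79 ± 1.17 CPM in KO (SD, n = 4). Their log2 fold changes were 1.28 (SE 0.265, adjusted p of 0.00322) and 1.29 (SE 0.186, adjusted p of 0.000194). Spon2, which encodes spondin-2, a secreted protein of innate immunity (ENSMUSG00000037379.7, chromosome 5 at 33198184 to 33218455 on the minus strand), had a CPM of 14.2, 24.3 and 15.9 in WT Cre 1 to 3 and 15.2, 13 and 7.94 in MCS 1 to 3. Spon2 stood at 23, 14, 17.5 and 13.9 CPM in KO 1 to 4. WT Cre 2 was the highest of all 10 livers and MCS 3 the lowest, and the groups overlapped (log2 fold change of 0.18, SE 0.255, adjusted p of 0.636). Of 28 other non-collagen matrix genes tested, 15 were higher and none lower, with a median log2 fold change of 0.87. Among them was Fbn2, for fibrillin-2, with 26 counts in KO and 2 in the controls (a ratio of 19.7 per library size, exact 95% interval 4.94 to 171, adjusted p of 0.00253). KO 4 held 15 of the 26, and without it the KO mean went from 0.262 to 0.159 CPM and the adjusted p was 0.0133. Vcan, the proteoglycan versican, went from 0.189 ± 0.0986 to 1.33 ± 0.645 CPM (2.84 on the log2 scale, SE 0.398, adjusted p of 0.00015).

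The KO livers differed among themselves in how far these genes rose. Over the 32 genes that passed upward, KO 4 had the highest of the 4 KO values in 25 and the lowest in 0, and KO 1 had the lowest in 27 and the highest in 1. The median log2 distance from the control mean over these 32 genes was 0.98 in KO 1, 1.45 in KO 2, 1.27 in KO 3 and 1.85 in KO 4. Over all genes tested the same median was -0.03, 0.015, 0.018 and 0.0095. KO 1 also had the lowest total count, and the part of depth in its lower values was not tested. H3f3a stood at 25.7% to 30.6% of the control mean in the KO livers and H3f3b at 24.9% to 35.4%. The medians over all 37 genes were 0.014, 0.028 and 0.13 in WT Cre 1 to 3 and -0.039, -0.18 and 0.053 in MCS 1 to 3, against 0.93, 1.28, 1.20 and 1.69 in KO 1 to 4.

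**Figure D3:**
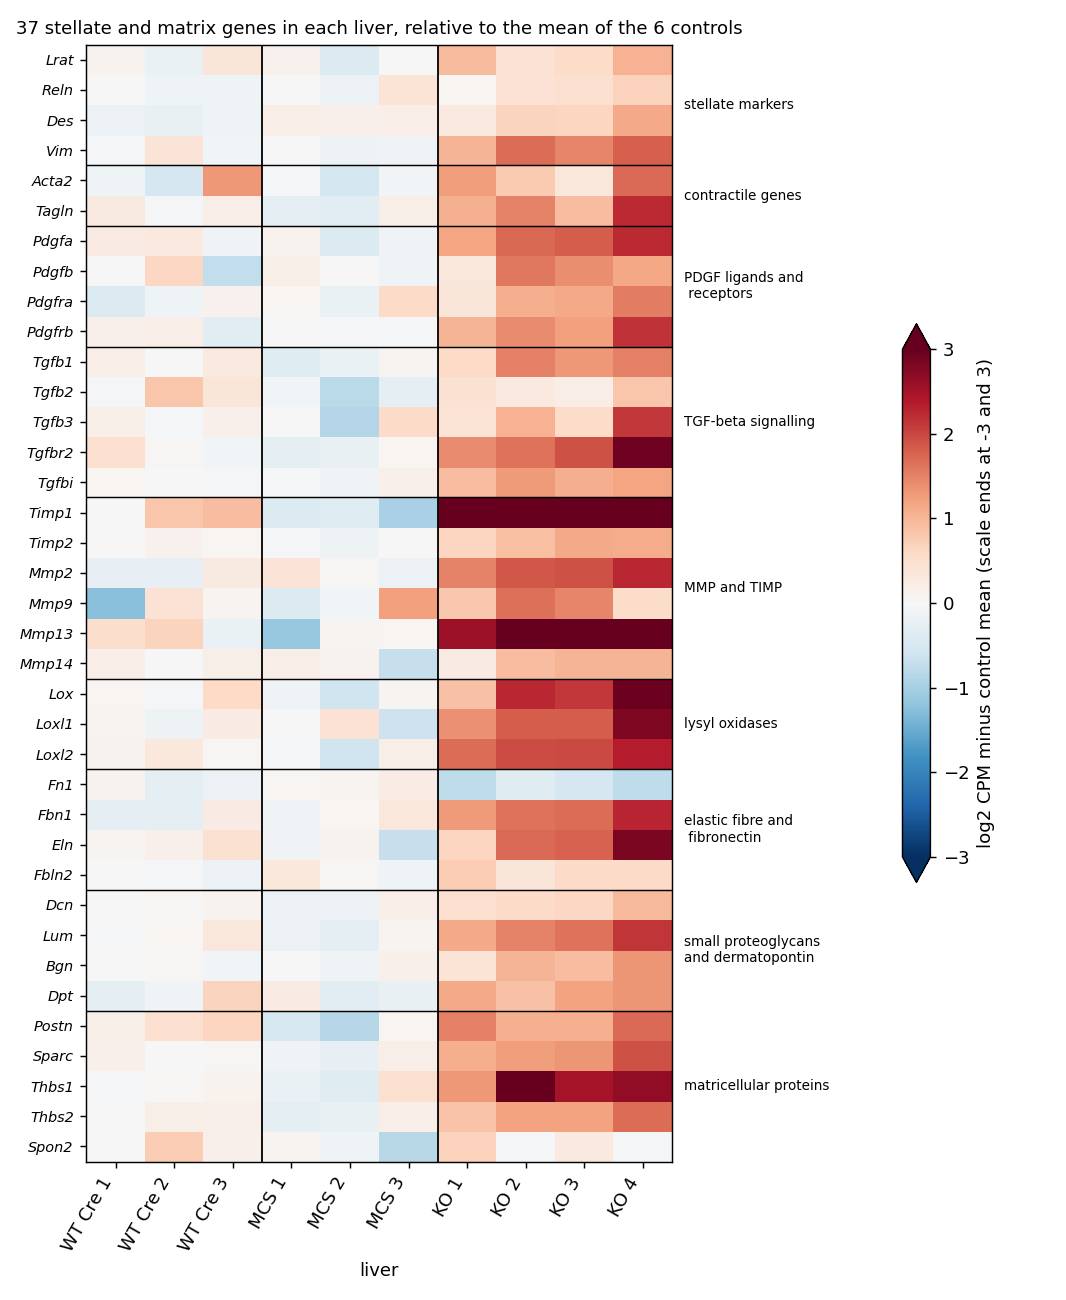
Log2 CPM minus the control mean (colour, red higher and blue lower, scale ending 3 units from 0) of the 37 genes (rows, grouped by role) in each of the 10 livers (columns). The 6 control columns are pale, the KO columns are red for most genes with KO 4 the darkest (median of 1.69 over the 37 genes) and KO 1 the lightest (0.93), and Fn1 is blue in all 4.

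Levels of different genes were compared as CPM per kilobase of exon. On this scale Fn1 was the most abundant of the 37 genes, at 117 in the controls and 77 in KO. Dcn, Bgn and Sparc followed in the controls at 22.9, 14.9 and 14.2, and in KO Sparc came second at 38.2, ahead of Dcn at 36.6 and Bgn at 28.8. Tgfbr2 went from rank 11 to 6 (2.67 to 11.2), Timp1 from rank 36 to 17 (0.117 to 3.19) and Mmp13 from rank 34 to 24 (0.154 to 1.83). Spon2 went from rank 6 to 12 with levels of 5.12 and 5.81. Lox was the least abundant in the controls at 0.0681 and stood at rank 35 in KO. Across the 37 genes the Spearman correlation of this control level with the log2 fold change was -0.50. Over all 22449 genes tested it was -0.24, but there the control level was CPM not divided by exon length. The values thus rest on unlike measures and are not a direct comparison. Both are descriptions only, since the control values enter both measures.

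Ratios of pairs of genes were also taken within each liver. Sparc over Dcn CPM was 0.379 to 0.451 in the controls and 0.604 to 0.77 in KO, and Vim over Des was 3.49 to 6.57 and 6.73 to 8.55. Pdgfrb over Lrat, a marker of activation over one of vitamin A storage, was 0.296 to 0.626 in the controls and 0.494 to 1.04 in KO, so these ranges overlapped. Tgfb1 over Tgfb3 was 5.07 to 12.6 and 4.55 to 12.1, nearly the same range in both groups.

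The KO livers were then set against each kind of control, since the WT Cre mice share the vector of the KO mice and the MCS mice share their floxed alleles. Both comparisons use the same 4 KO livers. Against the WT Cre controls 31 of the 37 genes (83.8%) were higher and 1 lower, where 15.3% and 13.1% of all genes were, and Acta2, Tgfb2, Tgfb3, Mmp9 and Spon2 did not pass. Against the MCS controls 31 (83.8%) were higher and 1 lower, where 17.3% and 14.8% of all genes were, and Reln, Tgfb2, Mmp9, Fbln2 and Spon2 did not pass. The median log2 fold change was 1.19 against WT Cre and 1.40 against MCS (0.016 and 0.0062 over all genes), and 27 of the 37 values were larger against MCS.

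Against both kinds of control 30 of the 37 (81.1%) passed in the same direction, where 22% of all genes tested did, and both use the same KO livers. Timp1 was 3.94 (adjusted p of 4.55e-05) on the log2 scale against WT Cre and 6.30 (adjusted p of 9.97e-06) against MCS, a fitted value that depends on the prior count, since the MCS libraries held 2 counts in all and the WT Cre libraries 13. The count ratio per library size was 16.3 (exact 95% interval 9.36 to 31) against WT Cre and 95.2 (26.1 to 790) against MCS. The intervals overlapped, but they share the KO counts and cover counting error only. Their overlap is therefore no comparison of the 2 kinds of control. Mmp13 was 3.24 (adjusted p of 0.000133) and 4.03 (adjusted p of 4.72e-05), and Tgfbr2 was 1.93 (adjusted p of 0.0036) and 2.24 (adjusted p of 0.00148). Postn was 0.92 (adjusted p of 0.00932) against WT Cre and 1.76 (adjusted p of 0.000211) against MCS. Tagln was 1.40 (adjusted p of 0.00547) and 1.71 (adjusted p of 0.00169), and Tgfb1 was 1.12 (adjusted p of 0.00206) and 1.44 (adjusted p of 0.0004).

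Acta2 passed against MCS alone, at 1.34 (adjusted p of 0.0488), and was 0.67 (adjusted p of 0.291) against WT Cre, the group that holds the liver at 7.46 CPM. Tgfb3 was 1.17 (adjusted p of 0.0698) and 1.29 (adjusted p of 0.0486), nearly equal values on either side of the threshold. Reln was 0.52 (adjusted p of 0.0301) against WT Cre and 0.32 (adjusted p of 0.142) against MCS, and Fbln2 was 0.66 (adjusted p of 0.016) and 0.48 (adjusted p of 0.0558). Fn1 was -0.48 (adjusted p of 0.0234) and -0.71 (adjusted p of 0.00247), and its call against WT Cre was lost without WT Cre 1 or WT Cre 3. Tgfb2 was 0.045 (adjusted p of 0.932) and 0.91 (adjusted p of 0.0569), and Spon2 was -0.086 (adjusted p of 0.841) and 0.50 (adjusted p of 0.178). Passing against 1 kind of control does not show that the effects differ, and the next comparison gives that difference.

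The WT Cre and MCS controls did not differ in any of the 37 genes at an adjusted p under 0.05 (0 of 37 by edgeR and by DESeq2, where edgeR called 0.927% of all genes), and 3 had an unadjusted p under 0.05. These were Timp1 (2.36 for WT Cre over MCS on the log2 scale, adjusted p of 0.24), Postn (0.85, adjusted p of 0.155) and Tgfb2 (0.87, adjusted p of 0.398). On log2(FPKM + 1) limma called Postn (0.74, adjusted p of 0.0445), and on log2(FPKM + 0.1) it did so as well (0.99, adjusted p of 0.0358).

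**Figure D4:**
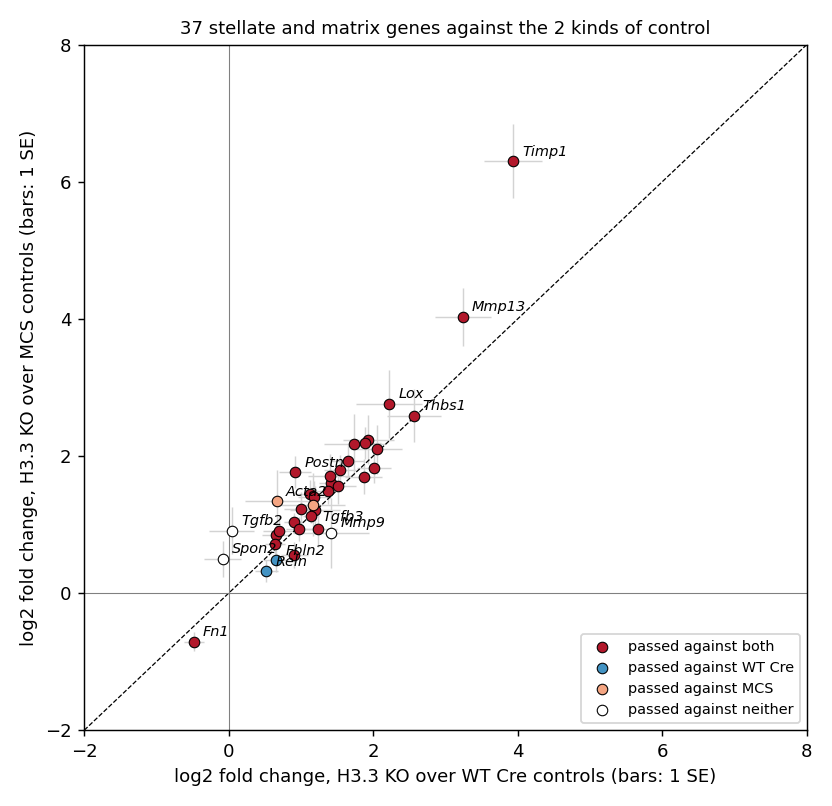
Log2 fold change of H3.3 KO over WT Cre controls (x axis) and over MCS controls (y axis) for the 37 genes, with bars of 1 SE and a dashed line of equal values; the same 4 KO livers enter both axes. Timp1 lies highest above the line at 3.94 and 6.30, Fn1 is at -0.48 and -0.71, and Acta2, Tgfb3, Reln and Fbln2 are the points that passed on 1 axis alone.

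Markers of the cell types that share these genes were measured in the same livers, and values given for single markers are log2 fold changes unless a unit stands beside them. Of 12 markers of quiescent stellate cells 5 were higher, none lower and 7 did not pass, with a median log2 fold change of 0.37 and a summed level of 212 to 251 CPM in the controls and 269 to 304 in KO. Among the 5 was the nerve growth factor receptor Ngfr, from 4.51 ± 1.44 to 12.6 ± 4.87 CPM (1.50 on the log2 scale, SE 0.245, adjusted p of 0.000553). Gfap, a classic marker of rodent stellate cells, did not pass at 0.381 ± 0.154 and 0.431 ± 0.172 CPM (adjusted p of 0.727).

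Of 9 portal fibroblast markers 7 were higher and none lower, with a median of 1.09. Their summed level was 8.05 to 12.6 CPM in the controls and 13.2 to 24.4 in KO. Examples were Gli1 with 78 counts in KO and 9 in the controls (a ratio of 13.1 per library size, exact 95% interval 6.58 to 29.8, adjusted p of 4.92e-05) and Cd248 at 2.30 on the log2 scale (SE 0.42, adjusted p of 0.00102), which was 1.62 without KO 4 (adjusted p of 0.00219). Of 10 smooth muscle genes tested 3 were higher, Mylk was lower (-0.68, adjusted p of 0.00126) and 6 did not pass, with a summed level of 363 to 459 CPM against 431 to 626. Of the 3 the largest rises were in Tpm1 (1.43, SE 0.158, adjusted p of 2.91e-05) and Smtn (0.78, SE 0.172, adjusted p of 0.00331). Myh11 and Cnn1 did not pass, and 7 genes were called without WT Cre 3. Of 7 mesothelial markers 2 were higher, not far from the 19.7% of all genes, Lrrn4 (1.59, SE 0.362, adjusted p of 0.00415) and Wt1 (1.45, SE 0.302, adjusted p of 0.00234), and 4 were called without WT Cre 3. Their summed level was 2.24 to 4.25 CPM against 4.43 to 6.35.

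All 10 Kupffer cell markers were higher, with a median of 1.61, and their summed level was 231 to 442 CPM in the controls and 532 to 1179 in KO. Other macrophages also express some of the 10, such as Cd68, Lyz2 and Csf1r, so the list does not set Kupffer cells apart from them. The 10 were led by the scavenger receptor Marco at 3.23 (SE 0.48, adjusted p of 0.000807) and the lysosomal Cd68 at 1.87 (SE 0.245, adjusted p of 0.000173). All 7 markers of recruited macrophages were higher too (median of 2.73, 24.4 to 28.6 CPM against 45.9 to 105). Cd9 made up most of that sum, at 23.1 ± 1.52 CPM in the controls and 57.4 ± 19.3 CPM in KO. The largest changes of the 7 were Gpnmb at 4.52 (SE 0.49, adjusted p of 3.35e-05) and Chil3 at 3.40 (SE 0.641, adjusted p of 0.00166). Of 6 lymphocyte markers 4 were higher (3.19 to 4.8 CPM against 5.02 to 18.8). The leading genes were Cd8a at 2.58 (SE 0.621, adjusted p of 0.00753) and Cd4 at 2.32 (SE 0.415, adjusted p of 0.00116). Of 5 neutrophil markers tested 3 were higher (3.3 to 13.3 CPM against 5.93 to 27.8), and without KO 2 only 1 was called. S100a9 was at 1.74 (SE 0.494, adjusted p of 0.0183) and Csf3r at 1.58 (SE 0.357, adjusted p of 0.00519). KO 1 lay within the control range for Chil3 (0.195 CPM), Cd8a (0.13 CPM), S100a9 (2.22 CPM) and Csf3r (2.61 CPM). KO 4 did so too for S100a9 (3.82 CPM).

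Of 12 endothelial markers 3 were higher, a share close to the 19.7% of all genes, with a median of 0.33 and summed levels that overlapped, 329 to 408 CPM in the controls and 353 to 589 in KO, and without KO 1 it was 8 of the 12. The leading ones were Cdh5 at 0.77 (SE 0.152, adjusted p of 0.00162) and Tek at 0.61 (SE 0.121, adjusted p of 0.00182). Of 7 cholangiocyte markers tested 2 were higher, also close to that share, Sox9 at 1.32 (SE 0.224, adjusted p of 0.000645) and Prom1 at 0.82 (SE 0.269, adjusted p of 0.0302), with 19.6 to 29.5 CPM against 33.8 to 39. Leaving out WT Cre 2, any MCS liver or KO 1 left 1 marker called, Prom1 also lost its call without KO 3, and the defining keratin Krt19 did not pass (-0.38, adjusted p of 0.495). Of the 8 hepatocyte markers, 3 rather than 5 were called without KO 3. The part of these cell types in the values of the 37 stellate and matrix genes was not tested.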

How the data were processed

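Poly(A) RNA from TRIzol extracts of 10 livers was sequenced by the authors, who trimmed the reads and aligned them to mm10 with STAR. The deposited count table holds whole-number, unnormalized counts for 55421 gene identifiers. Per the paper the authors counted with HOMER, while the submitters' processing notes list STAR, HTSeq and Cufflinks, and the strand setting is not given in the sources used here. Of the 37 genes, 13 share exonic bases with a gene on the opposite strand (Loxl2 and Pdgfra also with a miRNA on their own strand), which makes their counts less certain. The FPKM table deposited by the authors, whose tool is not stated, served as an alternative, with 1 blank cell among these genes (Timp1) read as 0. Coordinates and overlaps are from GENCODE M21 (mm10).

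Samples were grouped by their titles. Control columns were matched by library number, 1 to 3 to WT Cre and 4 to 6 to MCS. The comparison with all controls does not rest on that match, while each value for 1 kind of control and the replicate block do. Replicates were labelled as separate samples. Replicate pairs within a group differed by 10.3 to 96.7 times the counting noise (a chi-square over its degrees of freedom), more than repeated runs of the same library would. Pairs from different groups were not compared, and the check cannot show whether separate libraries came from the same mouse.

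Genes with a summed count of at least 10 were tested two-sided by edgeR 4.0.16 (quasi-likelihood F test, R 4.3.3, TMM, robust), with Benjamini-Hochberg adjustment over 22449 genes, in a fit of 2 groups (KO and all controls) and a fit of 3 groups with shared dispersion. A gene passed at an adjusted p under 0.05, and was a DEG where its absolute log2 fold change was also over 1. Log2 values per liver used a prior count of 2. The fits were tested on simulated data. Alternatives were library size only, DESeq2 size factors, DESeq2 1.42.0, another filter and none, limma 3.58.1 on FPKM, a replicate block, the mean of both control kinds, and each liver left out.

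In each role group, values per liver are given for the 2 genes with the largest absolute log2 fold change among those that passed, for all that did not pass or fell, and for the TGF-beta ligands. The genes and lists were chosen with earlier results of these data known. A protein comparison of the TGF-beta ligands was planned and not done, since no protein table was used here. Some items of the further lists are not reported here by name.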

Additional observations from a re-analysis of the deposited data

Results flagged for a closer look

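Dixon's test at the 95% level was applied to each gene in the 6 controls and in the 4 KO livers, and it marked 6 of 74 groups, where chance marks about 1 in 20. In the controls WT Cre 3 was high for Acta2 at 7.46 CPM (the other 5 at 2.05 to 2.89), WT Cre 2 for Vim at 22.5 CPM (15.6 to 17.1), WT Cre 1 for Tgfbr2 at 30.3 CPM (17.8 to 22.3) and MCS 3 for Reln at 55.7 CPM (36.7 to 42.1). For Mmp14, MCS 3 was low at 15 CPM (24 to 28.1), and among the KO livers KO 1 was low at 28.7 CPM (45.9 to 48.9).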

How the results depend on the processing

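Of the 33 genes that passed in KO against all controls, 31 passed in the same direction under each of 19 alternatives, the exceptions being Reln and Tgfb3, and none of the 37 changed sign. The number that passed was 32 to 35 over these alternatives, 32 to 34 with 1 liver left out, and the median log2 fold change ran from 0.97, on log2(FPKM + 1), to 1.44. Acta2 also passed with DESeq2 (0.99, adjusted p of 0.0324). Against WT Cre, limma on log2(FPKM + 1) made 12 genes DEGs in place of 21, a scale that shrinks changes of low genes, and Fn1 did not pass there, by library size only or with the replicate block. Between the 2 kinds of control limma called 1 gene (Postn) on either FPKM scale. Replicate numbers did not pair the samples: deviations from the group means correlated at -0.0387 to 0.111 for equal numbers and at -0.154 to 0.194 for different ones. With a replicate block 32 genes passed against all controls, 30 against WT Cre and 28 against MCS, with a median of 1.16, and Tgfb3 (0.72, adjusted p of 0.102) and Reln (0.32, adjusted p of 0.0941) did not pass against all controls. By library size only 8 endothelial markers passed. Depth limited the least abundant genes, with 0 to 6 Timp1 counts in a control library.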
